A study of Mus musculus with 7 samples.

Results

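Msc, Nkx6-1, Wnt4, Tmem132e and Tcf21 are 5 of the 32285 genes counted in single-cell RNA-seq of mouse neural crest cells (NCCs). They were chosen because they rose in outflow-type NCCs, the mesenchymal cells with Foxf1 and Hand2 transcripts, of Tbx1 null embryos at E10.5, so their values in those cells are given as a description without a test. The question followed here was which cells carry the 5 genes, and whether they differ by genotype in cells that the choice did not use. All 7 libraries came from embryos labelled Swiss-Webster (a mixed background, by the study's methods) that carried Wnt1-Cre/+ and ROSA-EGFPf/+, a Cre that marks NCCs and part of the dorsal neural tube with EGFP, and EGFP-positive cells were sorted. The 4 control libraries were 1 at E8.5 (the anterior part of the embryo), 1 at E9.5 (heart and pharyngeal apparatus) and 2 at E10.5 (heart and arches 2 to 6). The 3 libraries titled Tbx1 null were 1 at E9.5 and 2 at E10.5, and for the E10.5 pair the tissue was worded as heart and apparatus below arch 1. The study's methods state that the head and arch 1 were taken off at E10.5. Its supplement lists the E10.5 null pair as excluding arch 1, and the neural tube as part of every E9.5 and E10.5 dissection. Whether the dissections of the genotypes matched in full is not stated. Their genotype label reads Tbx1+/-, while the titles and the study's methods call them null, the word kept here. Each library was a pool of embryos and is 1 replicate. The study calls the E10.5 pairs biological replicates, made from separate pools, and p-values measure the spread between these pools.

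Tcf21 (capsulin) and Msc (musculin) encode related basic helix-loop-helix (bHLH) repressors, known from the progenitors of pharyngeal arch muscle and, for Tcf21, from the epicardium and the mesenchyme around inner organs. Nkx6-1 encodes a homeobox factor of ventral neural progenitors and of the pancreas, Wnt4 a secreted Wnt ligand needed in kidney and gonad and also made in the neural tube, and Tmem132e a single-pass membrane protein linked to hearing. Foxf1, a forkhead factor that responds to Hedgehog signals, and Hand2, a bHLH factor, are both known from the mesenchyme of the outflow tract and the arches.

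In mm10, Tcf21 (ENSMUSG00000045680) lies at chr10:22817281-22820174 on the minus strand and Msc (ENSMUSG00000025930) at chr1:14753346-14755992 on the minus strand. Nkx6-1 (ENSMUSG00000035187) lies at chr5:101658139-101664996 on the minus strand, Wnt4 (ENSMUSG00000036856) at chr4:137277489-137299726 on the plus strand, and Tmem132e (ENSMUSG00000020701) at chr11:82388900-82446332 on the plus strand. All 5 are protein coding. An antisense gene that is also in the files overlaps Msc (Gm9947) and Tcf21 (Gm10824), and whether the counting used strand is not given in the sources used here, so reads of these pairs may not be told apart.

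The stretches just upstream of Tmem132e and Tcf21 are shown because these 2 genes passed the filter on low counts in outflow-type cells, where both null libraries lay above both controls. They are RefSeq sequences (GRCm38.p6), written 5′ to 3′ on the strand of the gene, and were cut where the annotated gene begins. Capitals mark the only E-box (CANNTG, the motif that bHLH factors bind) in either of them.
Tmem132e, chr11:82388650-82388899: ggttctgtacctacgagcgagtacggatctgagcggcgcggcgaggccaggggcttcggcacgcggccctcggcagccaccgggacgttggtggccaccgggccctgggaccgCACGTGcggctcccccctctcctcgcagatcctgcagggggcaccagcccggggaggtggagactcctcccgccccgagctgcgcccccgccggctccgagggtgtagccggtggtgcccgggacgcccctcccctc
Tcf21, chr10:22820175-22820393: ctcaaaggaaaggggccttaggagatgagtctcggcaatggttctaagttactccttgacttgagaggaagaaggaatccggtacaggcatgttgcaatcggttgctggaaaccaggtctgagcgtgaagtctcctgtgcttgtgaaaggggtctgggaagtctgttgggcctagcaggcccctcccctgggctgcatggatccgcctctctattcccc
The E-box of Tmem132e began 137 bases before the end of its window, and 66.2% of 32851 mouse windows of that length held at least 1 E-box on either strand. The Tcf21 window held none, as against 62.0% of windows of its length that held 1 or more. Neither window held TGTTTAC (a forkhead motif, in 3.17% of the longer and 2.80% of the shorter windows), TGGGTGGTC (GLI, 0.225% and 0.219%), CTTTGAT (TCF/LEF, 3.21% and 2.90%) or TAATTA (homeobox core, 4.84% and 4.52%) on either strand. G and C made up 75.6% of the Tmem132e window against a median of 52.4%, and 54.8% of the Tcf21 window against 52.1%.

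The libraries held 140264662 to 234844769 unique molecular identifiers (UMIs, 1 for each transcript counted), and 5587 to 9557 cells a library were kept. Pairs of libraries shared 0 to 44 barcodes. Mesenchymal NCCs were cells with a Twist1 UMI, a Prrx1 or Prrx2 UMI and at most 1 Sox10 UMI, and those with both a Foxf1 and a Hand2 UMI are called outflow-type. In the control libraries at E9.5 and E10.5, 7 of 10 outflow tract crest markers were called higher in outflow-type than in Foxf1-negative, Hand2-negative mesenchymal cells, Isl1 (log2 fold change 5.47 ± 0.14 SE), Gata3 (4.66 ± 0.20), Hand1 (6.79 ± 0.18) and Rgs5 (5.63) among them. Of 8 genes listed for foregut mesenchyme 4 passed the filter on low counts, and 3 of them were called higher too. Foxf2 (3.83) was one, and Barx1 (0.65) another, which also stood at 144 to 202 CPM in the Foxf1-negative, Hand2-negative cells. Nkx3-2 (5.68) was at most 0.031 CPM in those cells and passed the filter through outflow-type cells, so nothing is read from its call. The name outflow-type stands for the gate and is no claim of a single cell type. There were 229 outflow-type cells in the control and 450 in the null library at E9.5, 384 and 521 in the E10.5 controls, 344 and 188 in the E10.5 null libraries, and none at E8.5. Cells with Foxf1 but no Hand2 UMI were fewer (90 and 129 in the E10.5 controls, 177 and 119 in the E10.5 null libraries). Sox10 cells had at least 2 Sox10 UMIs, neural cells had a Sox2 UMI, no Twist1 UMI and at most 1 Sox10 UMI, and the remaining cells fell into no class. Tbx1 itself, the deleted gene, stood at 21.4 and 9.63 CPM (a gene's UMIs scaled to the same total number of UMIs for every class and library) in outflow-type cells of the E10.5 controls, and at 8.25 and 31.2 CPM in those of the E10.5 null pair. The labels do not say which part of the gene the null allele lacks, and UMIs come from the 3′ end of transcripts, so these values do not check the labels.

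Null replicate 2 at E10.5 stood apart. Its 5 markers of neurons (Tubb3, Elavl3, Elavl4, Stmn2 and Nhlh1) summed to 155 CPM in outflow-type cells, against 23.1 to 32.1 CPM in the other 3 libraries at E10.5, and to 807 CPM in Foxf1-negative, Hand2-negative cells, against 31.9 to 81.8 CPM. Its 6 blood markers summed to 7.97 to 9.61 CPM in every class named here, against at most 2.66 CPM in the same classes of the other 3. The homeobox gene Barx1, which in the controls was also high outside the outflow-type cells, stood at 20.2 CPM in its outflow-type cells against 229 to 333 CPM. Null replicate 1 was made with an older kit version than the other 3 at E10.5. Every value below is therefore given by library.

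Tcf21 was higher in outflow-type cells of both null libraries than of both controls at E10.5. It stood at 1.35 CPM (95% Poisson interval 0.695 to 2.35) and 0.717 CPM (0.288 to 1.48) in the controls, and at 2.55 CPM (1.65 to 3.76) and 5.37 CPM (3.51 to 7.87) in the null libraries. The groups did not overlap, but in control replicate 1 a single cell held 10 of the 12 UMIs, and the upper bound of that control lay above the lower bound of null replicate 1. Here, as below, the intervals cover counting error alone.

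Tmem132e was likewise higher in outflow-type cells of both null libraries than of both controls. In outflow-type cells it stood at 1.68 CPM (0.941 to 2.77) and 0.512 CPM (0.166 to 1.20) in the controls, and at 4.79 CPM (3.52 to 6.37) and 4.96 CPM (3.18 to 7.37) in the null libraries. The UMIs were spread over cells, 47 UMIs in 34 cells of null replicate 1 and 24 UMIs in 18 cells of null replicate 2, against 15 in 14 and 5 in 5 control cells. The fitted log2 difference of null against control was 2.08 for Tmem132e and 1.81 for Tcf21, both from edgeR over 2 and 2 libraries. Without 1 library it ranged from 1.43 to 3.11 for Tmem132e and from 1.28 to 2.28 for Tcf21. Both genes were chosen on this contrast, so these values are a description and no support for a difference.

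Msc, Nkx6-1 and Wnt4 rested on few UMIs or on 1 null library in outflow-type cells. Msc had no UMI there in either control (a count of 0 allows up to 0.336 and 0.307 CPM) or in null replicate 1 (up to 0.306 CPM), and 3 UMIs, 0.619 CPM, in null replicate 2. Nkx6-1 had no UMI in the controls, 2 UMIs in 1 cell of null replicate 1 and 3 UMIs in null replicate 2, at or below the 3 counts that a 0 allows. Wnt4 stood at 0.673 and 0.205 CPM in the controls, at 0.204 CPM in null replicate 1 and at 7.43 CPM in null replicate 2, where 1 cell held 22 of its 36 UMIs. Both null libraries lay above both controls for Nkx6-1, Tmem132e and Tcf21, that is for 3 of the 5 genes, and for 27.2% of the 12093 genes tested in this class. Since the 5 were chosen on this contrast, nothing is read from that count. Of the 5, only Tmem132e and Tcf21 passed the filter on low counts.

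Among the Foxf1-positive cells of both null libraries, these 3 genes stood higher in cells with Foxf1 but no Hand2 UMI than in outflow-type cells. There Msc stood at 0 and 1.03 CPM in the controls, at 1.71 CPM in null replicate 1 (8 UMIs in 3 cells) and at 10.9 CPM in null replicate 2 (34 UMIs in 8 cells). Nkx6-1 stood at 0 and 0.513 CPM in the controls, at 2.36 CPM in null replicate 1 (11 UMIs in 7 cells) and at 12.8 CPM in null replicate 2 (40 UMIs in 10 cells). Wnt4 stood at 0 and 0.513 CPM in the controls, at 4.71 CPM (22 UMIs in 9 cells) and at 53.8 CPM (168 UMIs in 11 cells). For each of the 3, null replicate 2 lay far above null replicate 1, and the counts came from at most 11 cells a library. Tmem132e was already present in such cells of the controls (6.56 and 5.64 CPM) and stood at 10.1 and 6.73 CPM in the null libraries, and Tcf21 stood at 3.75 and 2.05 CPM against 5.14 and 6.73 CPM. All 5 genes had both null libraries above both controls, as had 26.6% of the 10240 genes tested in this class. The 5 were chosen for a rise in closely related cells of the same libraries, so nothing is read from their count.

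Over all mesenchymal cells with Foxf1 UMIs, whatever their Hand2 count, null replicate 2 was the highest library for 4 of the 5 genes. Msc stood at 0 and 0.171 CPM in the controls and at 0.552 and 4.65 CPM in the null libraries. Nkx6-1 stood at 0 and 0.0854 CPM against 0.897 and 5.40 CPM, and Wnt4 at 0.543 and 0.256 CPM against 1.66 and 25.6 CPM. Tcf21 stood at 1.81 and 0.940 CPM against 3.38 and 5.90 CPM. For Tmem132e null replicate 1 was the highest, with 2.62 and 1.37 CPM in the controls against 6.49 and 5.65 CPM. The share of genes with both null libraries above both controls was 28.6% of the 12509 tested, and since the 5 were chosen on this contrast nothing is read from their count. The plot of levels by class shows, in cells with Foxf1 but no Hand2 UMI, a smaller gap between the null libraries for the pair Tcf21 and Tmem132e than for the trio Msc, Nkx6-1 and Wnt4, for which null replicate 2 lay far above null replicate 1.

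**Figure D1:**
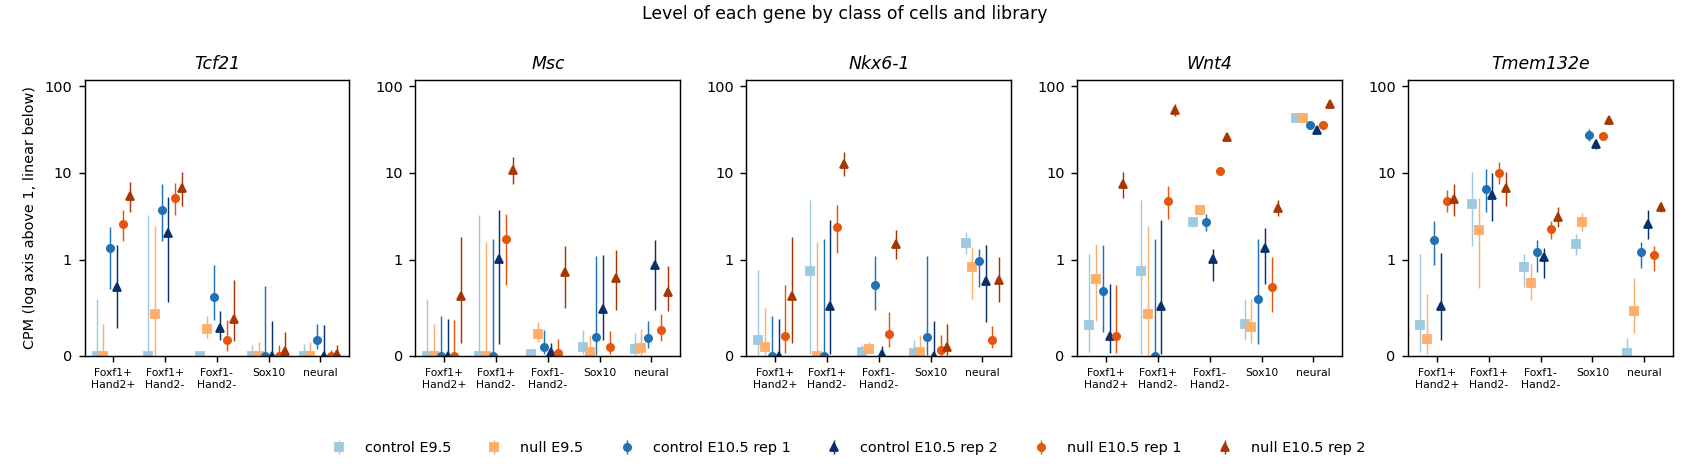
Level of each gene (CPM, log axis above 1 and linear below) in 5 classes of cells, by library, with 95% Poisson intervals for counting error. Squares are E9.5, circles and triangles are E10.5 replicates 1 and 2, blue is control and orange is null. At E10.5 Tmem132e was highest in Sox10 cells and Wnt4 in neural cells, and Tcf21 was at most 0.160 CPM in both Sox10 and neural cells.

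Some Foxf1-positive cells of the null libraries held UMIs of several of the genes. Cells with UMIs of 2 or more of the 5 genes numbered 1 of 474 and 3 of 650 in the controls, and 21 of 521 and 16 of 307 in the null libraries. The 5 genes were chosen for a rise in null cells of this kind. A larger number in the null libraries was thus in part set by the choice, and the counts are a description. Tmem132e and Tcf21 were found in the same 11 cells of null replicate 1, where 66 cells held the one and 26 the other and 3.29 shared cells would come from independent draws, and in the same 7 cells of null replicate 2, against 2.74. The controls shared 1 cell each (0.405 and 0.194 from independent draws), and over all mesenchymal cells they shared 6 (0.774) and 3 (0.50), as against 12 (1.80) and 10 (2.41) in the null libraries, so sharing of these 2 genes was also seen in the controls. In null replicate 2, Msc and Nkx6-1 shared 5 of the 11 and 13 cells that held them (0.466 from independent draws) and Nkx6-1 and Wnt4 shared 5 of 13 and 21 cells (0.889), while Wnt4 shared 1 cell each with Tmem132e (2.05) and Tcf21 (1.92) and Msc 1 cell with Tmem132e (1.07). Of the 10 pairs of genes, 8 in null replicate 1 and 7 in null replicate 2 shared more cells than independent draws give. Some of these rest on 1 shared cell. In null replicate 1, 3 cells held Msc, and it shared 1 cell each with Nkx6-1, Wnt4 and Tmem132e (0.046, 0.058 and 0.38 from independent draws). Pairs of other genes were not counted, so nothing is read from the number of pairs. The controls had at most 2 Foxf1-positive cells with Msc and 1 with Nkx6-1, so most of their pairs could not be compared (1 and 3 of the 10 shared more). The deeper a cell, the more genes are seen in it, and this was not corrected for in these counts. Nor was any correction made for RNA that reached a droplet from other cells.

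Foxf1 itself was graded among these cells, and at E10.5 Tcf21 was highest in the cells with most of it in both null libraries and, from 4 UMIs, in control replicate 2. In mesenchymal cells with 0, 1, 2 to 3 and 4 or more Foxf1 UMIs, Tcf21 stood at 0.142, 1.44, 2.62 and 5.52 CPM in null replicate 1 and at 0.826, 4.22, 3.98 and 7.82 CPM in null replicate 2. In the controls the same bins held 0.782, 3.63, 1.05 and 0.820 CPM, and 0.422, 0.503, 0.978 and 2.43 CPM. Control replicate 2 and null replicate 1 were higher in each bin than in the one before, null replicate 2 was level between its middle bins, and control replicate 1 was highest at 1 UMI. In null replicate 2 the interval of the top bin (5.28 to 11.2 CPM) overlapped that of the bin of 1 UMI (2.02 to 7.76 CPM). The 5 genes were chosen for a rise in outflow-type cells of these null libraries. A climb with Foxf1 in the null libraries was thus in part set by the choice, and the bins are a description. Tmem132e stood at 1.92, 4.10, 5.77 and 8.97 CPM in null replicate 1 and at 2.63, 6.33, 4.55 and 5.73 CPM in null replicate 2. In null replicate 2 the first bin was the lowest, but the interval of the bin of 2 to 3 UMIs (1.96 to 8.96 CPM) held its value. In null replicate 2, Msc went from 0.714 CPM in the first bin to 7.04 CPM in the last, and Nkx6-1 from 1.05 to 8.86 CPM. Wnt4 did not climb from bin to bin, with 19.8, 17.3, 12.5 and 36.8 CPM in null replicate 2, where the top bin was the highest. In null replicate 1 it stood at 7.25, 1.23, 0.787 and 2.59 CPM, where the first bin was the highest. Cells of the top bin were somewhat deeper than cells without Foxf1 in the null libraries (a median of 27908.5 against 24894.5 UMIs, and of 26951.5 against 21566 UMIs), and CPM are given per UMI of the class.

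**Figure D2:**
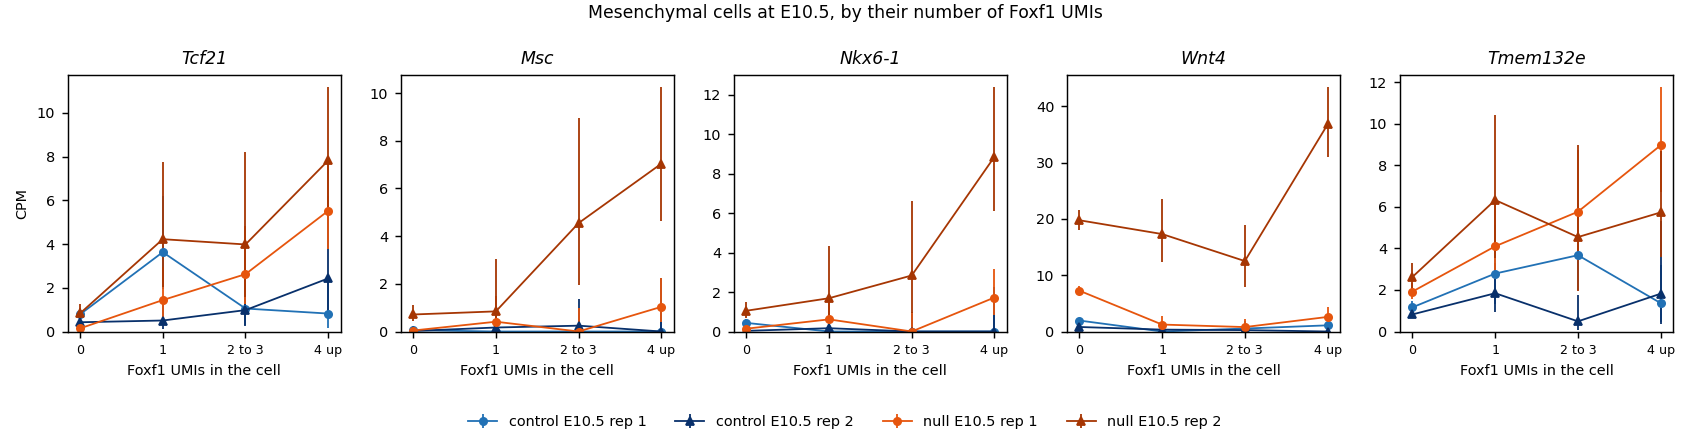
Level of each gene (CPM, linear axis, own scale for each gene) in mesenchymal cells at E10.5, by their number of Foxf1 UMIs (4 up means 4 or more), with 95% Poisson intervals. Tcf21 was highest in the top bin of both null libraries (orange and brown) and, from 4 UMIs, of control replicate 2. Tmem132e climbed over the whole range in null replicate 1 alone, and Msc and Nkx6-1 mainly in null replicate 2. The choice of the genes in part set a climb in the null libraries, so the plot is a description.

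The Foxf1-positive cells of null replicate 2 held marks of caudal position and of neural cells more often than those of the other 3 libraries. Cells with a UMI of Hoxa4, Hoxb4, Hoxa5 or Hoxb5, genes of caudal position, made up 14.98% and 16.8% of them in the controls and 27.3% and 51.5% in the null libraries. Cells with neural marks (a Sox2 UMI, or 5 or more UMIs of the neuron markers) made up 11.0% and 7.23% in the controls, 8.45% in null replicate 1 and 46.9% in null replicate 2. Deeper cells show such UMIs more often, and the null cells were deeper (medians of 26434 and 24584 UMIs against 21962.5 and 17081). After thinning to 5000 UMIs the Hox share was 7.84% and 9.74% in the controls, 9.83% in null replicate 1 and 24.5% in null replicate 2, and the share with neural marks was 3.6%, 4.17%, 1.73% and 8.5%. The Hox share of null replicate 1 was then close to that of control replicate 2 (95% binomial intervals 7.4% to 12.7% and 7.56% to 12.3%), and its share with neural marks was below both controls. The shift of null replicate 2 was not particular to Foxf1-positive cells. In Foxf1-negative, Hand2-negative cells the thinned Hox share was 9.37% and 9.91% in the controls and 9.27% and 30.3% in the null libraries. In Sox10 cells it was 26.0% and 32.2% against 29.3% and 47.9%. Neural marks, too, were most frequent in null replicate 2 in both classes after thinning. How far the shares in Foxf1-positive cells account for the levels was not tested, but the levels were computed within each of them.

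In Foxf1-positive cells with the Hox UMIs (71 and 109 control, 142 and 158 null cells), Tcf21 stood at 3.12 and 3.10 CPM in the controls and at 9.50 and 8.82 CPM in the null libraries. Without the Hox UMIs it stood at 1.53 and 0.423 CPM against 1.13 and 2.26 CPM, and the groups overlapped. The 5 genes were chosen on closely related cells of these libraries, and the split was added after the data were seen. Where the groups overlapped and where they did not is therefore a description, and nothing is read from it. Tmem132e was about as high in Hox-positive cells of control replicate 1 (10.9 CPM; 5.31 CPM in control replicate 2) as of null replicate 2 (9.50 CPM; 18.5 CPM in null replicate 1), so its groups overlapped within that position. Outside it, Tmem132e stood at 0.876 and 0.423 CPM in the controls and at 2.08 and 0.846 CPM in the null libraries, again with overlap. Msc, Nkx6-1 and Wnt4 also lay mainly in the Hox-positive cells, at 8.37, 9.28 and 42.8 CPM in null replicate 2, at 1.54, 3.34 and 3.6 CPM in null replicate 1 and at no more than 1.04 CPM in the controls. In null replicate 2, all 37 Msc UMIs of Foxf1-positive cells were in Hox-positive cells.

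Leaving out the cells with neural marks lowered the trio in null replicate 2 and left the pair nearly as it was. Over the remaining Foxf1-positive cells (422 and 603 control, 477 and 163 null cells), Tcf21 stood at 1.93 and 0.915 CPM in the controls and at 3.01 and 5.79 CPM in the null libraries, and Tmem132e at 2.95 and 1.46 CPM against 5.65 and 5.00 CPM. In null replicate 2, Msc then stood at 1.32 CPM (5 UMIs) in place of 4.65 CPM, Nkx6-1 at 2.37 CPM (9 UMIs) in place of 5.40 CPM, and Wnt4 at 8.43 CPM in place of 25.6 CPM. Of the 32 Wnt4 UMIs left there, 28 lay in 1 cell with Hox UMIs. Both null libraries lay above both controls for each of the 5 genes, as for 27.9% of the 12301 genes tested in these cells, and nothing is read from this since the 5 were chosen on the contrast, with Msc at 0 and 0.183 CPM in the controls and 0.603 CPM in null replicate 1, Nkx6-1 at 0 and 0.0915 CPM and 0.904 CPM, and Wnt4 at 0.407 and 0.275 CPM and 1.43 CPM.

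**Figure D3:**
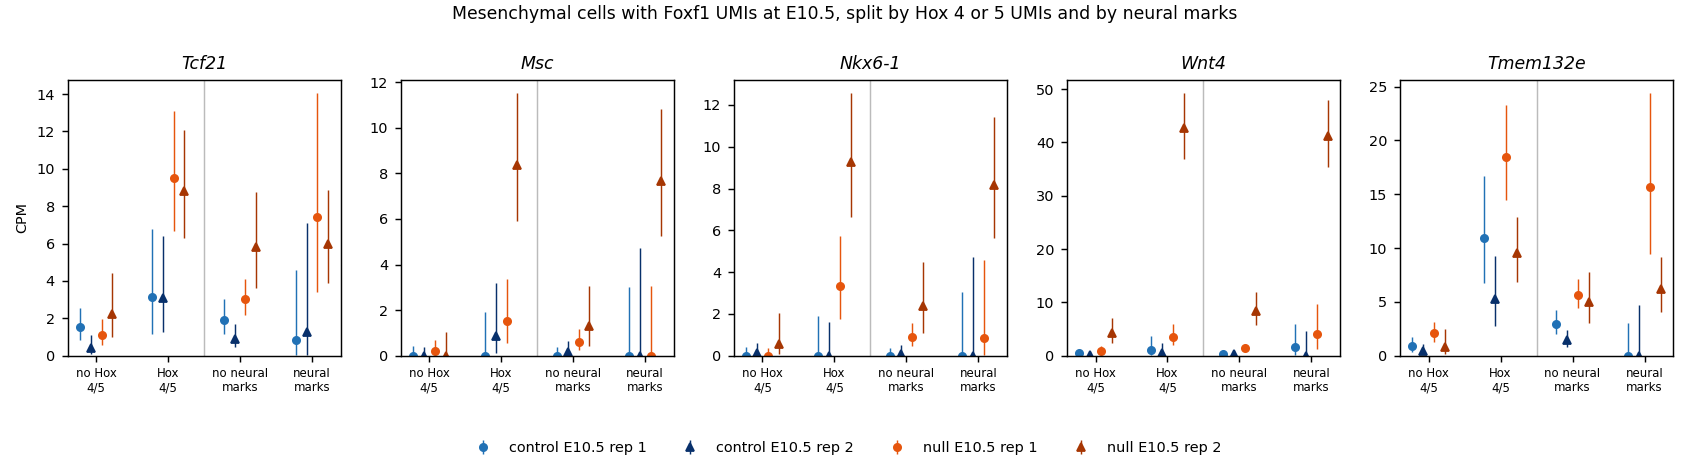
Level of each gene (CPM, linear axis, own scale for each gene) in Foxf1-positive mesenchymal cells at E10.5, split by UMIs of Hoxa4, Hoxb4, Hoxa5 or Hoxb5 (left pair) and by neural marks (right pair), with 95% Poisson intervals for counting error. Tcf21 and Tmem132e stood higher in Hox-positive cells of every library, and the levels of Msc, Nkx6-1 and Wnt4 in null replicate 2 (brown triangles) lay in the cells with Hox UMIs and with neural marks.

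Outside the Foxf1-positive and Hand2-positive cells, edgeR called none of the 5 different between genotypes with all 4 libraries and the filter on low counts. In Foxf1-negative, Hand2-negative mesenchymal cells (1393 and 3213 control, 1266 and 802 null cells), Wnt4 stood at 2.69 and 1.02 CPM in the controls and at 10.6 and 26.2 CPM in the null libraries. Its log2 fold change was 3.11 ± 0.55 (SE, n = 2 and 2 libraries; edgeR with Benjamini-Hochberg adjustment, adjusted p = 0.102), past the range of the controls in both null libraries but short of the threshold of 0.05. It was called by DESeq2 (3.12, adjusted p = 1.7e-06) and by edgeR without the filter on low counts (3.07, adjusted p = 3.2e-18), and over all its alternatives the adjusted p ranged from 3.2e-18 to 0.41. Leaving out 1 library moved the call of Wnt4: adjusted p (edgeR, Benjamini-Hochberg) was 0.0417 without control replicate 1, 0.0061 without null replicate 1 and 0.0477 without null replicate 2, with log2 fold changes of 3.89, 3.61 and 2.45. Wnt4 lay in the cells with neural marks, at 21.4 and 16.1 CPM in the controls and 46.1 and 38.4 CPM in the null libraries, and such cells made up 11.3% and 3.24% of the class in the controls against 22.3% and 59.9% in the null libraries (4.08% and 1.23% against 13.5% and 31.7% after thinning to 5000 UMIs). Without them Wnt4 stood at 0.208 and 0.50 CPM against 0.731 and 4.67 CPM (log2 fold change 2.48 ± 0.85, edgeR adjusted p = 0.248). The part of neural cells in the Wnt4 difference was not tested further.

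Tmem132e in the same class stood at 1.22 and 1.06 CPM in the controls and at 2.22 and 3.11 CPM in the null libraries (log2 fold change 1.01 ± 0.36, edgeR adjusted p = 0.252). Within its Hox-positive cells the values were 4.99 and 4.28 CPM against 4.18 and 4.21 CPM, which is no higher, and within the others 0.476 and 0.466 CPM against 1.72 and 1.65 CPM. Tcf21 stood at 0.612 and 0.286 CPM against 0.159 and 0.382 CPM, lower on average and with overlap (log2 fold change −0.97 ± 0.68, edgeR adjusted p = 0.507). Over all mesenchymal cells that were not outflow-type the sign of the Tcf21 difference turned (0.36), so no direction is given. Nkx6-1 stood at 0.734 and 0.0179 CPM against 0.222 and 1.53 CPM, and 20 of its 24 UMIs in control replicate 1 were in 1 cell (log2 fold change 1.03 ± 1.30, edgeR adjusted p = 0.717). Msc stood at 0.0917 and 0.0358 CPM against 0.0318 and 0.874 CPM and did not pass the filter on low counts. Over all genes, 29 of 14298 (0.203%) were called in this class, 5 of them higher (0.035%) and 24 lower (0.168%) in null cells, and 38% of genes had both null libraries above both controls, as Wnt4 and Tmem132e had.

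Tmem132e was highest in Sox10 cells at E10.5. It stood at 27.6 and 21.6 CPM in the 2 controls and at 26.4 and 40.9 CPM in the E10.5 null libraries, above every other class in each of them, and the genotypes overlapped (log2 fold change 0.42 ± 0.26, edgeR adjusted p = 0.608). After each cell was thinned to 5000 UMIs, 13.3% and 8.0% of Sox10 cells held a Tmem132e UMI in the controls and 13.2% and 15.7% in the null libraries. In Foxf1-positive mesenchymal cells the same share was 1.48% and 0.464% against 2.89% and 2.29%, and in neural cells 0.717% and 1.19% against 0.602% and 1.87%. The share in Foxf1-positive cells was below the neural share in control replicate 2, and in null replicate 2 its 95% binomial interval (0.925% to 4.66%) held the neural share. Sox10 cells held 41.7% and 59.4% of all Tmem132e UMIs of the controls and 74.6% and 68.8% of those of the null libraries, whose Sox10 cells were more numerous (203 and 527 against 1216 and 720). Foxf1-positive cells held only 8.58% and 4.30% against 7.87% and 3.4%. Wnt4 in Sox10 cells stood at 0.587 and 1.37 CPM against 0.712 and 3.95 CPM (log2 fold change 1.08 ± 0.80, edgeR adjusted p = 0.656), with the markers of neurons at 185 to 251 CPM in the other 3 libraries and 647 CPM in null replicate 2. Msc and Nkx6-1 stayed under 1 CPM there and were not tested, and Tcf21 had 1 UMI in all. Of 12990 genes, 2 (0.0154%) were called in Sox10 cells, 1 higher (0.0077%) and 1 lower (0.0077%) in null cells, and 25.1% had both null libraries above both controls, none of the 5 among them.

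Neural cells carried most of the Wnt4 transcripts, 82.9% and 64.1% of its UMIs in the E10.5 controls and 73.2% and 72.1% in the E10.5 null libraries. Wnt4 stood there at 36.1 and 31.4 CPM in the controls and at 35.5 and 62.5 CPM in the null libraries (log2 fold change 0.46 ± 0.28, edgeR adjusted p = 0.842), so only null replicate 2 lay above the controls. Foxf1-positive cells held 4.61% of the Wnt4 UMIs of null replicate 2 and at most 0.829% in the other 3. Tmem132e in neural cells stood at 1.21 and 2.58 CPM against 1.14 and 4.08 CPM (edgeR adjusted p = 0.912), Nkx6-1 at 0.984 and 0.775 CPM against 0.167 and 0.784 CPM (0.842) and Msc at 0.183 and 0.948 CPM against 0.268 and 0.666 CPM (0.992), all with overlap. Of 14965 genes, edgeR called 0 in neural cells (869 had an unadjusted p under 0.05, and DESeq2 called 54), and 26.8% had both null libraries above both controls, none of the 5 among them.

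Tcf21 was rare in Sox10 and neural cells at E10.5. Of its UMIs, neural cells held 7 in control replicate 1 (2 cells, 0.160 CPM, 8.86% of the gene's UMIs), 1 in null replicate 2 and none in the other 2 libraries, and Sox10 cells held 1 in null replicate 2. After thinning to 5000 UMIs it was seen in 0 of 2512 and 1008 neural cells of the controls and in 0 of 3489 and 2996 of the null libraries, which at this depth allows shares of cells with a UMI of up to 0.119%, 0.298%, 0.086% and 0.100%. In Foxf1-positive cells it was seen in 0.847% and 0.309% of control cells and in 2.12% and 1.63% of null cells, at median depths of 17104 to 26440 UMIs against 10206 to 16251 UMIs for the neural cells. Foxf1-positive cells held 25.3% and 21.6% of all Tcf21 UMIs in the controls and 76.6% and 64.4% in the null libraries. The Hand2-positive, Foxf1-negative mesenchymal cells held 29.1% and 45.1% in the controls against 3.12% and 20.5%, and Foxf1-negative, Hand2-negative cells 25.3% and 31.4% against 7.81% and 9.59%. These shares also follow the size of the classes, since Hand2-positive, Foxf1-negative cells made up 13.4% and 22.0% of kept cells in the controls against 8.24% and 5.49%. The level of Tcf21 in them was 1.03 and 0.630 CPM in the controls, 0.112 CPM in null replicate 1 and 1.80 CPM in null replicate 2, with overlap. Over all kept cells Tcf21 stood at 0.610 and 0.353 CPM in the controls and at 0.377 and 0.569 CPM in the null libraries, with overlap. Over all cells the genotypes thus overlapped for this bHLH gene, at 51 to 79 UMIs a library. Of 8 pharyngeal muscle markers, Myf5, Myf6, Myod1 and Myog had no UMI in outflow-type cells of the controls and at most 0.206 CPM (Myog) in those of the null libraries at E10.5. Des, a filament gene also made in smooth muscle, stood there at 38.7 and 29.2 CPM in the controls and at 19.6 and 47.5 CPM in the null libraries.

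**Figure D4:**
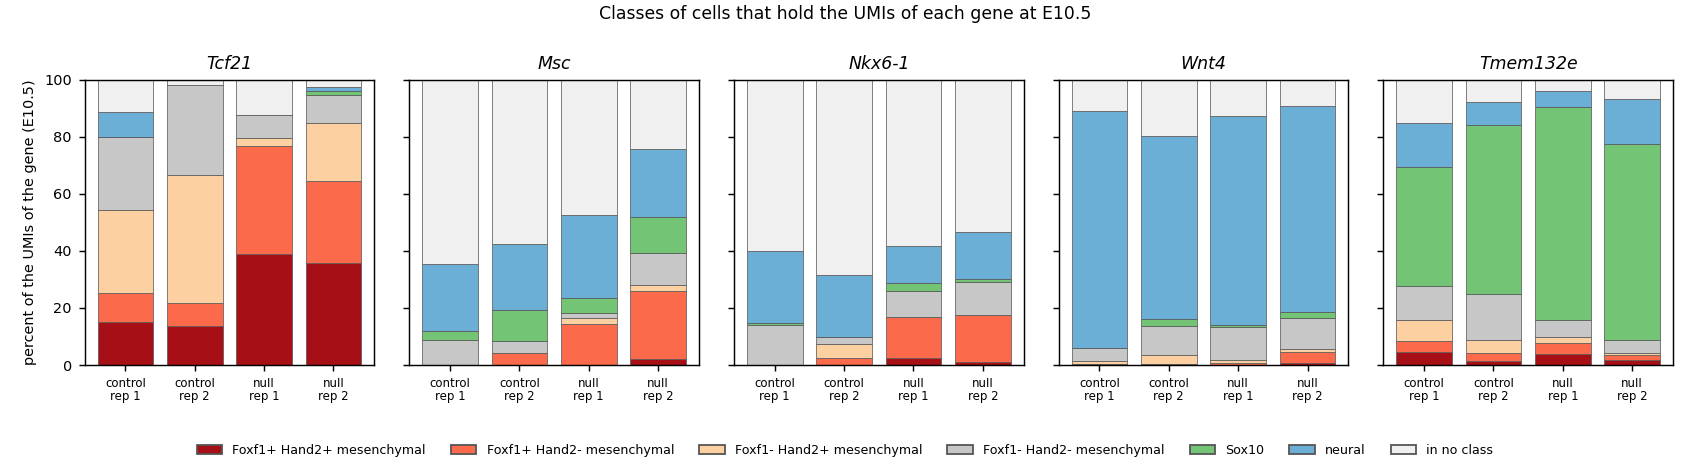
Percent of the UMIs of each gene at E10.5 that lay in each class of cells, by library, each bar adding to 100. Foxf1-positive mesenchymal cells (red) held 25.3% and 21.6% of the Tcf21 UMIs in the controls and 76.6% and 64.4% in the null libraries, while the largest share lay in Sox10 cells (green) for Tmem132e, in neural cells (blue) for Wnt4 and in cells of no class (white) for Nkx6-1.

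Cells that met no gate held the largest share of the Nkx6-1 UMIs in each library at E10.5, and of the Msc UMIs in each but null replicate 2, where Foxf1-positive cells (25.9%), no class (24.5%) and neural cells (23.8%) held similar shares. The cells without a class held 64.7% and 57.4% of the Msc UMIs in the controls and 47.3% and 24.5% in the null libraries, and 60.0% and 68.3% against 58.4% and 53.5% of the Nkx6-1 UMIs. The markers of neurons summed to 2743 to 7096 CPM in these cells at E10.5, more than in any class named above. Msc stood there at 1.51 and 1.46 CPM in the controls and at 2.08 and 1.72 CPM in the null libraries, and Nkx6-1 at 6.98 and 1.51 CPM against 3.61 and 6.39 CPM. Foxf1-positive cells held 0% and 4.26% of the Msc UMIs of the controls against 14.5% and 25.9%, and 0% and 2.44% against 16.9% and 17.7% of the Nkx6-1 UMIs.

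At E9.5 there was 1 library of each genotype and no test, and the pattern of E10.5 was not seen. In outflow-type cells, Msc and Tcf21 had no UMI in either genotype (a count of 0 allows up to 0.479 CPM in control and 0.266 CPM in null cells), Nkx6-1 had 1 UMI in each, and Tmem132e stood at 0.319 CPM in control and 0.178 CPM in null cells, 2 UMIs each. Wnt4 stood at 0.319 CPM (2 UMIs) in control and 0.799 CPM (9 UMIs) in null cells, with overlapping intervals (0.0387 to 1.15 and 0.365 to 1.52 CPM). In Foxf1-negative, Hand2-negative cells, Tcf21 had no UMI in 3135 control cells and 25 UMIs in 7 of 4046 null cells, and Msc had 1 UMI against 20 UMIs in 8 cells. In the null library 5 mesenchymal cells held both bHLH genes, out of 8 with Msc and 11 with Tcf21 (0.0147 from independent draws). Sox10 cells held less Tmem132e than at E10.5, 1.51 CPM in control and 2.71 CPM in null cells, while neural cells held Wnt4 at 43.1 and 43.5 CPM.

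At E8.5 the control library had no outflow-type cell, and the 5 genes were found in other cells. Nkx6-1 reached 19.9 CPM in its neural cells, more than in any class of any other library, and these cells held 803 of its 944 UMIs (85.1%). After thinning to 5000 UMIs, 8.56% of these neural cells held an Nkx6-1 UMI, as against 0.199% of the Sox10 cells. Wnt4 stood at 6.34 CPM in neural cells of E8.5, below every later library. Tmem132e stood at 0.236 CPM in the 2012 Sox10 cells, so its level in that class was low at E8.5 and E9.5 and at least 21.6 CPM at E10.5. Tcf21 had 19 UMIs and Msc 16 UMIs in all.

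Outflow-type cells were also set against Foxf1-negative, Hand2-negative mesenchymal cells of the same library, in the 3 control libraries of E9.5 and E10.5. Low values in outflow-type cells of the E10.5 controls were part of how the 5 genes were chosen, so their values are a description. Wnt4 stood lower in outflow-type cells, at 0.319, 0.673 and 0.205 CPM against 2.71, 2.69 and 1.02 CPM, the same order in 3 of 3 libraries (log2 difference −2.39 ± 0.36 SE, edgeR with library as a block). Without the cells with neural marks Wnt4 stood at 0.336, 0.516 and 0.222 CPM against 0.669, 0.208 and 0.50 CPM, so the order turned in control replicate 1 at E10.5, and it no longer passed the filter on low counts. Tcf21 stood at 0, 1.35 and 0.717 CPM against 0, 0.612 and 0.286 CPM (1.17 ± 0.50) and Tmem132e at 0.319, 1.68 and 0.512 CPM against 0.917, 1.22 and 1.06 CPM (−0.44 ± 0.46). Msc and Nkx6-1 were under the filter on low counts. Of 13609 genes, 1116 (8.2%) were called, 567 higher (4.17%) and 549 lower (4.03%).

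The relatives and pathway partners of the 5 genes were taken as lists. In the same comparison of control cells, 6 of 9 genes of the Hedgehog response were higher in outflow-type cells, among them Foxf2 (log2 fold change 3.83), Foxl1 (3.50) and Hhip (2.77), which binds the ligand, and the receptor Ptch1 (2.22), and 2 were lower, the coreceptors Gas1 (−2.12) and Cdon (−0.92), with a list median of 1.88 against −0.01 for all genes. Of 12 tested bHLH partners and relatives of Tcf21 and Msc, 7 were higher, led by Hand1 (6.79), Id4 (2.16), Tcf24 (2.03) and Scx (1.20), and 2 lower, the partners Tcf4 (−0.87) and Tcf12 (−0.58), with a median of 0.73. Around Wnt4, none of 3 tested Wnt ligands and none of 9 receptors was called, for example Wnt5a and Fzd2, while Dkk1, a secreted antagonist, was higher (3.12) and Notum (−2.63), Dkk2 (−1.37), Rspo3 (−0.85) and the Wnt targets Sp5 (−3.33) and Nkd1 (−0.74) were lower. Of 10 NK homeobox relatives of Nkx6-1, 2 passed the filter, Nkx3-2 (5.68) and Nkx2-5 (4.63). In Foxf1-negative, Hand2-negative cells they stood at no more than 0.031 and 0.179 CPM, so they passed it through their counts in outflow-type cells. That both were higher there thus followed from the filter, and nothing is read from it. Of the Tmem132 family, Tmem132a was higher (0.33) and Tmem132c lower (−2.26). All these calls are edgeR calls at an adjusted p under 0.05, against 8.2% of all genes.

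Between genotypes these lists were nearly without calls, as were all genes. Of all genes tested, 0.203% were called in Foxf1-negative, Hand2-negative cells, 0.0154% in Sox10 cells and 0% in neural cells. Nothing is therefore read from the lack of calls in lists this short. In Foxf1-negative, Hand2-negative cells, none of the genes of the Hedgehog, Wnt, bHLH or Tmem132 lists that passed the filter was called by edgeR, and no NK relative passed it, with list medians from −0.93 (Hedgehog response, 9 genes) to 0.51 (Tmem132 family, 4 genes) against −0.01 for all genes. Of 10 outflow tract crest markers 1 was called higher, Gata3, at 1.07 and 1.84 CPM in the controls against 11.9 and 12.7 CPM (log2 fold change 2.85 ± 0.34, edgeR adjusted p = 0.0391), and of 16 arch position genes Emx2 was called lower, at 67.3 and 87.3 CPM against 0.540 and 0.928 CPM (−6.97 ± 0.35, edgeR adjusted p = 0.0015). The neural tube and neuron markers had list medians of 2.72 and 3.09, with no call. In Sox10, neural and outflow-type cells no gene of any list was called. In outflow-type cells edgeR called 0 of 12093 genes (1087 had an unadjusted p under 0.05, and DESeq2 called 33).

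The genes whose levels ran most alike were named by Pearson's r of log2(CPM + 1) over 27 sums of library and class (outflow-type, Foxf1-negative and Hand2-negative, Sox10 and neural cells of the 7 libraries), given as a description, since sums share libraries and depth. For Tcf21 they were Fam162b (0.922), the cardiac homeobox gene Nkx2-5 (0.915) and the tight junction gene Cldn11 (0.913). For Tmem132e they included Chn2 (0.945) and Adgrg6 (0.940), a receptor of Schwann cells. For Wnt4 they were Pou3f2 (0.975), Zic1 (0.974) and Casz1 (0.974), transcription factors known from neural cells, of which Pou3f2 reached 293 CPM in neural cells and at most 15.3 CPM in outflow-type cells. For Nkx6-1 they were Foxa2 (0.95), Cnpy1 (0.939) and Pax8 (0.939). They reached 14.6, 7.13 and 21.4 CPM in neural cells and at most 1.14 CPM in the other classes. Nkx6-1 was by far highest in the neural cells of E8.5, so 1 sum of 1 library weighs heavily in these values of r. For Msc they were Spock2 (0.883), the sensory neuron factor Pou4f1 (0.882) and Hoxb8 (0.879). The sums include the outflow-type cells of E10.5, whose values chose the 5 genes, so likeness to genes of those cells is in part a restatement of the choice.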

How the data were processed

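Sorted EGFP-positive cells were profiled by 3′ droplet RNA-seq. Per the submitters’ processing notes, Cell Ranger 6.0.1 was run against mm10, and the authors deposited raw UMI counts for each gene and each barcode called as a cell, without normalization. Read filters beyond this are not given in the sources used here. Barcodes with fewer than 1000 genes or more than 10% of UMIs from mitochondrial genes were dropped, and the highest Scrublet scores were removed as doublets (0.8% of barcodes per 1000 barcodes), which left 70.7% to 93.3% of barcodes (scanpy 1.11.5, Python 3.11.15). Cells were classed by the UMI gates given in the text. The gates for mesenchymal, Sox10 and neural cells, the lists of genes and the 5 genes themselves were chosen with earlier results of these data known. The split by neural marks, the split by Hox UMIs and their shares after thinning were added after the data were seen. So were the class of all Foxf1-positive cells and the comparison of genotypes in cells with Foxf1 but no Hand2 UMI.

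UMIs were summed per library and class and fitted with edgeR 4.0.16 (TMM, filterByExpr, glmQLFit and glmQLFTest, R 4.3.3) over 2 control and 2 null libraries, or over 3 control libraries with the library as a block. Adjusted p-values are Benjamini-Hochberg over all genes tested, and calls are at 0.05. Every adjusted p printed without another tool comes from edgeR. The fits were first tested on simulated counts with known changes in 200 genes. CPM are the UMIs of a gene divided by all UMIs of the class in that library, scaled to the usual fixed total, with exact 95% Poisson intervals, and a count of 0 was taken to allow 3 counts. Cells share the source of their library and were not used as replicates. Shares of cells were taken after thinning to 5000 UMIs, with exact Clopper-Pearson intervals, and shallower cells (22 to 427 a library) were left out. E9.5 and E8.5 had 1 library per genotype and no test. The number of cells expected to hold both of a pair of genes was the product of their shares times the cells of the class.

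Genes are named by a rule: the 5 genes and the gate genes, of each list the called genes (at most 4 by size of change, or up to 2 with the highest CPM where fewer than 2 were called), and for each of the 5 the 3 genes with the highest Pearson's r, of which 1 is not reported here. Barx1, the muscle markers and the genes that complete a count beyond the rule (Gas1, Cdon, Tcf4 and Tcf12) were named after their values were seen. Alternatives were another scaling (DESeq2 1.42.0 size factors), DESeq2, no filter on low counts, limits of 200 genes and 5% mitochondrial UMIs, doublets kept, thinning, gates doubled, a replicate block, shared barcodes left out (421 barcodes were in more than 1 library) and leaving out each library. Positions are from the GENCODE annotation of GRCm38 and promoter windows from RefSeq, in which 4 of the 5 genes had a window. Those of Nkx6-1 and Wnt4 lay within the annotated gene for 250 and 146 of 250 bases and are not shown.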

Additional observations from a re-analysis of the deposited data

Results flagged for a closer look

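The difference between genotypes of Tmem132e had opposite signs at E9.5 and E10.5 in 2 classes, and the difference between the stages was not tested. In mesenchymal cells with Foxf1 and without Hand2 UMIs, null minus control was −2.20 CPM at E9.5 (4.38 CPM in control and 2.18 CPM in null cells, from 5 UMIs each), while at E10.5 both null libraries (6.73 and 10.1 CPM) lay above both controls (5.64 and 6.56 CPM), by 2.30 CPM on average. In Foxf1-negative, Hand2-negative cells, null minus control was −0.165 CPM at E9.5 (0.917 CPM in control and 0.752 CPM in null cells), while at E10.5 the null libraries (2.22 and 3.11 CPM) lay above the controls (1.06 and 1.22 CPM), by 1.53 CPM on average.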

How the results depend on the processing

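Of 186 fold changes of the 5 genes under the alternatives, 165 were counted as the same, and another scaling changed the direction of none. In outflow-type cells between genotypes, where no threshold was used, this means the same direction and a shift smaller than the SE. In the other comparisons it means the same direction and the same side of the threshold. Of 505 levels by library and class 74 moved by more than their interval, 49 of them among the 165 with doubled gates, and of the shares of a gene's UMIs in outflow-type cells 34 moved and 71 did not.

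The sign turned in 9 of them, and the cause was not tested: in Sox10 cells for Wnt4 without null replicate 2 (−0.59), in Foxf1-negative, Hand2-negative cells for Nkx6-1 without control replicate 2 (−0.03) or null replicate 2 (−0.70) and for Tcf21 over all mesenchymal cells that were not outflow-type (0.36), in neural cells for Msc without control replicate 2 (1.18) or null replicate 1 (0.42) and for Tmem132e without control replicate 1 (−0.06) or null replicate 2 (−0.70), and between control classes for Tmem132e with doublets kept (0.031). Without 1 library the values ranged from −0.59 to 1.87 for Wnt4 in Sox10 cells, from −0.70 to 5.04 for Nkx6-1 in Foxf1-negative, Hand2-negative cells, and in neural cells from −1.08 to 1.18 for Msc and from −0.70 to 1.09 for Tmem132e.

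The number of genes called moved with most settings. In Foxf1-negative, Hand2-negative cells (29 genes) it was 15 with DESeq2 size factors, 615 with DESeq2, 1312 without a filter, 15 after thinning, 66 with doubled gates, 144 with the replicate block, 63 without neural marks, 7 over all mesenchymal cells that were not outflow-type, and 10 to 1215 without 1 library. In Sox10 cells (2 genes) it was 6 with DESeq2 size factors, 69 with DESeq2, 334 without a filter, 0 at 200 genes and 5% mitochondrial UMIs, 9 with doublets, 33 after thinning, 4 with doubled gates, 260 with the replicate block, 5 without shared barcodes, and 23 to 139 without 1 library. In neural cells (0 genes) it was 54 with DESeq2, 142 without a filter, 331 with the replicate block and 8 to 47 without 1 library. In outflow-type cells (0 genes) it was 33 with DESeq2, 215 without a filter, 3 after thinning, 4 with doubled gates, 202 with the replicate block and 48 to 147 without 1 library. Between control classes (1116 genes) it was 1869 without a filter, 561 after thinning, 19 without the library block and 143 to 4068 without 1 library. A fit without 1 library leaves 1 arm with a lone library, assumed to vary like the other group.

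The labels tie a replicate number to no shared litter, batch or day, so no pairing was assumed: deviations of libraries with the same number correlated at 0.02 in Foxf1-negative, Hand2-negative cells, 0.16 in Sox10, 0.35 in neural and 0.19 in outflow-type cells over 2 pairs. The replicate block changed the call of none of the 5 genes. Msc and Nkx6-1 rest on at most 43 UMIs of Foxf1-positive cells a library, and thinning to 3000 UMIs in place of 5000, or none, moved 116 of 340 shares by more than their interval.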
